A study of Homo sapiens with 6 samples.

Results

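The epicardial and mesothelial markers other than keratins comprised 9 genes, WT1, TBX18, BNC1, LRRN4, UPK1B, UPK3B, MSLN, ITLN1 and SFRP5. They were chosen by symbol from the deposited count tables, and all 9 were among the 38557 genes listed. RNA sequencing had been done on cardiomyocytes made from induced pluripotent stem cells (iPSCs) of WTC11, an established human line labelled WT. The 2 groups differed in their backbone medium, RPMI plus B27 (a serum-free supplement) or DMEM plus fatty acids, with 3 biological replicates each. The labels give no medium composition, no time in the medium and no day of differentiation, and all 6 libraries come from 1 line. They also do not say whether replicates were separate differentiations, so p values measure only the spread between these cultures.

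The epicardium is the mesothelial sheet that covers the heart. During development its cells arise from the proepicardium, and some undergo an epithelial-mesenchymal transition and give rise to cardiac fibroblasts and vascular smooth muscle. The transcription factors WT1 and TBX18 are standard markers of this layer, and the uroplakins, mesothelin, LRRN4 and basonuclin 1 mark mesothelium in the heart and other body cavities. In cardiomyocyte cultures from iPSCs such cells can be present beside the cardiomyocytes. In bulk RNA, fewer cells of a type and less RNA per cell cannot be told apart.

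Libraries held 23232324 to 31035389 gene counts. Values below are in CPM, counts divided by library size after scaling by TMM, a method that corrects library totals for differences in composition. Before that scaling, a count of 0 would allow up to 0.0967 to 0.129 CPM, depending on the library (3 counts, counting error only). The 12 cardiomyocyte markers examined all had counts, and their summed level was 30374 to 36284 CPM in RPMI plus B27 and 23918 to 34330 CPM in DMEM plus fatty acids. Replicate numbers are shared between media, and libraries with the same number deviated together, so results of a second fit, blocked on that number, are given where they change the call of a marker or the count of a list.

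The label did not describe a uniform group. LRRN4 stood at 81.8 to 281.1 CPM in the 6 libraries and made up 82.0% to 95.6% of the counts of the 9 genes. TBX18, BNC1 and SFRP5 were at 0.688 to 7.72 CPM. The other 5 genes, WT1, UPK1B, UPK3B, MSLN and ITLN1, had means under 1 CPM in both media. Mesothelin, a defining surface protein of mesothelium, had at most 3 counts in any library.

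**Figure D1:**
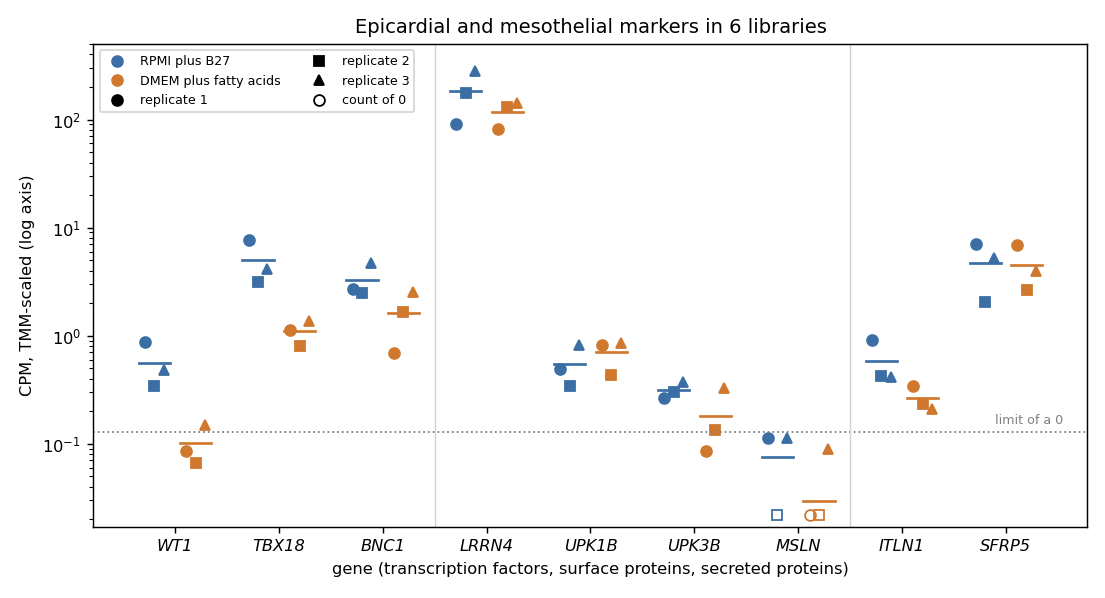
CPM (TMM-scaled, log axis) of the 9 markers in each of the 6 libraries, blue for RPMI plus B27 and orange for DMEM plus fatty acids, with symbol shape giving the replicate number and bars the means of 3 libraries. Counts of 0 are open symbols at the foot of the axis, and the dotted line is the highest level a count of 0 allows (0.129 CPM); WT1, TBX18 and ITLN1 are the genes whose media do not overlap.

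The windows before the transcription start of TBX18 and SFRP5 are printed because these were the tested genes whose fitted level differed most and least between media. Each holds the 250 bases before the start in RefSeq on GRCh38.p14, 5' to 3' on the gene's strand. The TBX18 window is chr6:84764599-84764848 and the SFRP5 window chr10:97772000-97772249, both on the minus strand. Capitals mark matches on either strand to TATAAA (the TATA box), to CCAAT (bound by NF-Y), to GGGCGG (the GC box), to GGAATG (the core bound by TEAD factors), to GCGNGGGNG (bound by WT1 and related zinc fingers) or to GATAA (bound by GATA factors).
TBX18: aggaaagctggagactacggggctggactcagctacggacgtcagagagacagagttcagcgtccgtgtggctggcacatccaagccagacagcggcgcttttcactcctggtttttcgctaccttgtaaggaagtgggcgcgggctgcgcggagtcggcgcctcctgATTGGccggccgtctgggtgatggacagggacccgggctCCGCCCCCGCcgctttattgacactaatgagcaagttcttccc
SFRP5: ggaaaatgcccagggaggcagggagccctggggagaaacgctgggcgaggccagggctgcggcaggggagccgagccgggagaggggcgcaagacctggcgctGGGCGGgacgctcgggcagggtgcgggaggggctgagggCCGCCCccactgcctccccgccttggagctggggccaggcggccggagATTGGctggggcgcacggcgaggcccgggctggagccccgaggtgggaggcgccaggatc
The TBX18 window held 1 CCAAT match beginning 82 bases before the start, and a GC box at 43 bases that overlaps a match to the WT1 motif at 42 bases. The SFRP5 window held 2 GC boxes and 1 CCAAT match at 60 bases, and no match to the WT1 motif. Of 35116 RefSeq windows of this length, 32.0% held CCAAT, 42.6% the GC box and 16.96% the WT1 motif. Neither window held TATAAA (10.7% of windows), GGAATG (11.9%) or GATAA (20.4%). The GC content was 61.6% for TBX18 and 76.8% for SFRP5, with a median of 58.0% over all windows. These matches describe the sequence, and binding was not measured. RefSeq windows were found for 7 of the 9 genes.

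Of the 9 genes, 6 had enough counts to be tested by edgeR's quasi-likelihood test (TBX18, BNC1, LRRN4, UPK1B, ITLN1 and SFRP5), and 0 passed an adjusted p of 0.05 over the 16107 genes tested, of which 1.36% passed (1.07% lower and 0.292% higher in DMEM plus fatty acids). At an unadjusted p under 0.05 there were 2, TBX18 and ITLN1, where 17.7% of all tested genes were found. With the replicate block 1 passed, TBX18, against 4.77% of all tested genes (3.41% lower), and 4 had an unadjusted p under 0.05 (24% of all). The DESeq2 Wald test also called TBX18 alone (7.56% of all genes), as did edgeR without the filter (2% of the 26979 genes with a count). WT1, UPK3B and MSLN lay under the filter, which asked for 0.358 unscaled CPM in at least 3 libraries. ITLN1 reached that level in the 3 RPMI plus B27 libraries only, so its entry into the test depended on the medium in which it was higher. UPK1B reached it in 2 RPMI plus B27 and 3 DMEM plus fatty acids libraries, and each other tested gene in every library.

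Among the transcription factors, TBX18, a T-box repressor of the proepicardium, epicardium and sinus horns (chromosome 6, 84687351 to 84764519, GRCh38, GENCODE v29), had 7.72, 3.10 and 4.10 CPM in RPMI plus B27 (replicates 1 to 3) and 1.12, 0.802 and 1.36 CPM in DMEM plus fatty acids. Every DMEM plus fatty acids library lay below every RPMI plus B27 library. The means were 4.97 ± 2.43 and 1.09 ± 0.281 CPM (SD, n = 3 each), and within replicate numbers the RPMI plus B27 value was 6.90, 3.87 and 3.01 times the other. The log2 fold change in DMEM plus fatty acids relative to RPMI plus B27 was -2.18 ± 0.42 (SE) with an adjusted p of 0.0606 by edgeR. With the replicate block it was -2.10 ± 0.32 with an adjusted p of 0.0271, so TBX18 fell in that fit. Of all tested genes, 1.33% had a more negative fitted change than TBX18. Leaving out 1 library at a time without the block gave log2 fold changes of -2.43 to -1.71 and adjusted p values of 0.0879 to 0.199.

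WT1, a zinc finger factor needed for the epicardial epithelial-mesenchymal transition (chromosome 11, 32387775 to 32435630), had raw counts of 23, 8 and 13 in RPMI plus B27 and 2, 2 and 5 in DMEM plus fatty acids. In CPM these were 0.866, 0.340 and 0.484 against 0.0860, 0.0668 and 0.148. The media did not overlap, and WT1 was lower in DMEM plus fatty acids within each replicate number. The pooled counts, 44 against 9, gave an RPMI plus B27 level 5.52 times the other, with a 95% interval of 2.66 to 12.9 that covers counting error only. An exact two-sided permutation test of the CPM gave p = 0.1, the smallest that 3 against 3 libraries allow. Fitted without the filter, WT1 had a log2 fold change of -2.40 ± 0.62 and an adjusted p of 0.0813 by edgeR, and with the block added 0.0603. The antisense gene WT1-AS, which shares 2.75% of the WT1 exon length, had 2 counts in RPMI plus B27 replicate 1 and 0 in the other 5 libraries.

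BNC1 (basonuclin 1, a zinc finger protein of stratified epithelia, germ cells and mesothelium; chromosome 15, 83255903 to 83284714) had 2.67, 2.47 and 4.66 CPM in RPMI plus B27 and 0.688, 1.64 and 2.55 CPM in DMEM plus fatty acids. The media overlapped, since DMEM plus fatty acids replicate 3 lay above RPMI plus B27 replicate 2. Within replicate numbers RPMI plus B27 was 3.88, 1.51 and 1.83 times higher. The log2 fold change was -0.99 ± 0.49 (edgeR adjusted p 0.348, and 0.130 with the block), and BNC1 was not called.

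Among the surface proteins, LRRN4 (leucine rich repeat neuronal 4, a single-pass membrane protein found in neurons and mesothelial cells; chromosome 20, 6040778 to 6054049) had 91.0, 174.5 and 281.1 CPM in RPMI plus B27 and 81.8, 130.5 and 141.0 CPM in DMEM plus fatty acids. Replicate 1 was the lowest library and replicate 3 the highest in both media, and the media overlapped. Within replicate numbers RPMI plus B27 was 1.11, 1.34 and 1.99 times higher. The log2 fold change was -0.63 ± 0.39 (edgeR adjusted p 0.449), and -0.52 ± 0.17 with the block (adjusted p 0.142). Without RPMI plus B27 replicate 3 it was -0.17, and without RPMI plus B27 replicate 1 it was -0.95.

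UPK1B, a tetraspanin of the uroplakin plaques of urothelium that is also expressed by mesothelium (chromosome 3, 119173517 to 119205153), had 0.489, 0.340 and 0.820 CPM in RPMI plus B27 and 0.817, 0.434 and 0.859 CPM in DMEM plus fatty acids. It was the only tested gene of the group with a positive fitted change (0.34 ± 0.46, edgeR adjusted p 0.738), and the media overlapped. UPK3B, a uroplakin with a single membrane span (chromosome 7, 76510428 to 76516521), had raw counts of 7, 7 and 10 against 2, 4 and 11. Its pooled level in RPMI plus B27 was 1.60 times the other, with a 95% counting interval of 0.822 to 3.16. MSLN (mesothelin, a lipid-anchored surface glycoprotein; chromosome 16, 760762 to 768865) had raw counts of 3, 0 and 3 against 0, 0 and 3, a pooled ratio of 2.26 with an interval of 0.483 to 13.97. For UPK3B and MSLN no difference was detectable at this depth.

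Among the secreted proteins, ITLN1 (intelectin 1 or omentin, a lectin of intestine and of visceral mesothelium; chromosome 1, 160876539 to 160885170) had 0.904, 0.425 and 0.410 CPM in RPMI plus B27 and 0.344, 0.234 and 0.207 CPM in DMEM plus fatty acids. These were 24, 10 and 11 counts against 8, 7 and 7. The media did not overlap, but the log2 fold change of -1.16 ± 0.47 was not called (edgeR adjusted p 0.262, and 0.166 with the block). SFRP5 (secreted frizzled-related protein 5, a Wnt antagonist; chromosome 10, 97766751 to 97771952) had 7.002, 2.04 and 5.18 CPM in RPMI plus B27 and 6.88, 2.64 and 3.97 CPM in DMEM plus fatty acids. Replicate 2 was lowest and replicate 1 highest in both media, and the means of 4.74 ± 2.51 and 4.50 ± 2.17 CPM (SD, n = 3 each) differed by less than the SD of either medium. Its log2 fold change was -0.08 ± 0.51 (edgeR adjusted p 0.949).

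**Figure D2:**
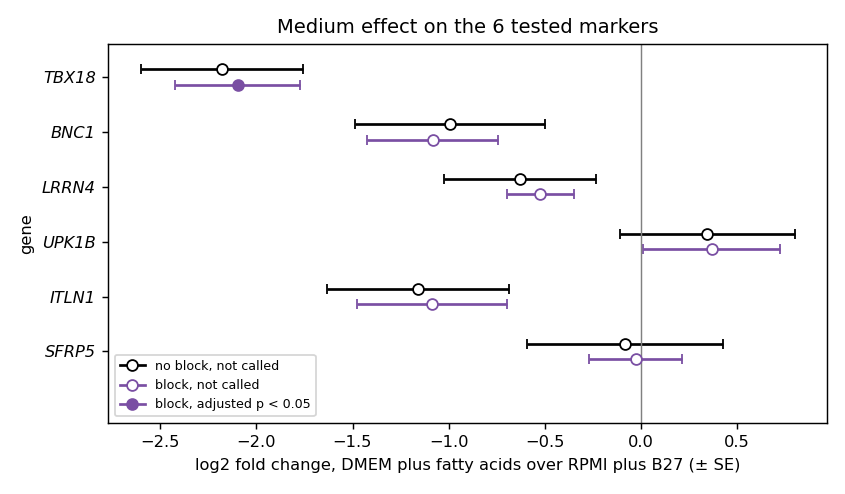
Fitted log2 fold change (DMEM plus fatty acids relative to RPMI plus B27) with its SE for the 6 tested markers, in black without and in purple with the replicate number as a block. Filled symbols have an adjusted p under 0.05, which TBX18 has with the block alone (0.0271).

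A negative fitted change was found for 5 of the 6 tested genes, against 49% of all tested genes, and 4 (TBX18, BNC1, LRRN4 and ITLN1) were lower in DMEM plus fatty acids within all 3 replicate numbers, against 24% of all. The media did not overlap for 2 of the 6 (TBX18 and ITLN1, both lower in DMEM plus fatty acids), while 12.8% of all tested genes did not overlap in that direction. These counts include ITLN1, which reached the filter level in RPMI plus B27 libraries only. Its place in them is therefore not independent of how it entered the test. The 3 replicates stood in the same order in both media for 4 of the 6 (LRRN4, UPK1B, ITLN1 and SFRP5), which held for 27.7% of all tested genes. The order was not the same for all 4: replicate 1 was the highest in both media for SFRP5 and ITLN1, and replicate 3 for LRRN4 and UPK1B. With the block the SE of the fold change went from 0.51 to 0.24 for SFRP5 and from 0.39 to 0.17 for LRRN4.

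Levels were compared between genes as mean CPM per kb of exon in GENCODE v29. In RPMI plus B27 the order was LRRN4 (67.7), SFRP5 (2.58), BNC1 (0.681), TBX18 (0.587), ITLN1 (0.391), UPK1B (0.243), WT1 (0.137), UPK3B (0.117) and MSLN (0.0293). LRRN4 was 26.2 times SFRP5, the next gene. Of the 8 pairs of neighbours in this order 3 did not overlap between libraries, LRRN4 over SFRP5, SFRP5 over BNC1 and UPK3B over MSLN. In DMEM plus fatty acids LRRN4 (43.7), SFRP5 (2.45) and BNC1 (0.339) again led, and TBX18 (0.129 CPM per kb) stood after UPK1B (0.310) and ITLN1 (0.177). UPK3B (0.0684), WT1 (0.0244) and MSLN (0.0116) followed. Only the pairs LRRN4 with SFRP5 and SFRP5 with BNC1 did not overlap between libraries there.

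Shares of raw counts within a library do not depend on how libraries are scaled. LRRN4 made up 82.0%, 95.1% and 94.6% of the counts of the 9 genes in RPMI plus B27 and 89.1%, 95.6% and 93.7% in DMEM plus fatty acids (exact two-sided permutation p = 0.8). Among the other 8 genes together, TBX18 made up 38.5%, 34.4% and 25.4% in RPMI plus B27 and 11.2%, 13.5% and 14.3% in DMEM plus fatty acids. SFRP5 made up 34.96%, 22.6% and 32.1% against 68.7%, 44.4% and 41.7%. UPK1B went the same way as SFRP5, with 2.44%, 3.77% and 5.08% against 8.15%, 7.30% and 9.03%. WT1 made up 4.32%, 3.77% and 3.00% against 0.858%, 1.12% and 1.56%. BNC1 overlapped, at 13.3%, 27.4% and 28.9% against 6.87%, 27.5% and 26.8%. TBX18, WT1, SFRP5 and UPK1B did not overlap between media in this share, each with an exact permutation p of 0.1, the smallest possible, and 0.2 after Benjamini-Hochberg adjustment over the 8 genes. A share can be higher because others are lower, and the CPM of SFRP5 and UPK1B overlapped between media.

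**Figure D3:**
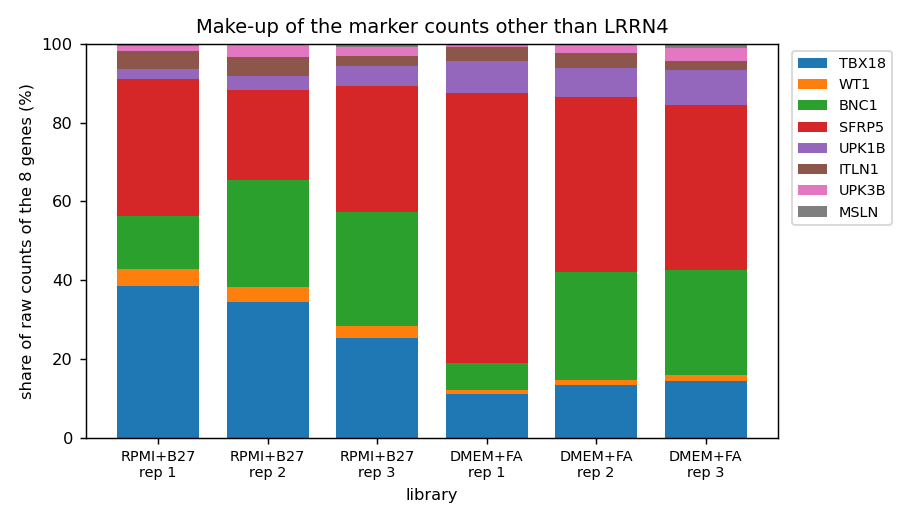
Share (%) of each gene in the raw counts of the 8 markers other than LRRN4, 1 stacked bar per library. TBX18 takes 25.4% to 38.5% of each RPMI plus B27 bar and 11.2% to 14.3% of each DMEM plus fatty acids bar, and SFRP5 is the largest block of each DMEM plus fatty acids bar.

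Genes with the most similar profile over the 6 libraries were found by the root mean square difference of centred log2 CPM among 11427 candidates, tested genes whose mean reached 5 CPM. For TBX18 they were FOSL2 (0.22 log2 units), WDR54 (0.24) and KLF9 (0.24), against a median of 1.13 over all candidates. FOSL2, a subunit of the AP-1 transcription factor, had 52.6, 28.4 and 29.6 CPM in RPMI plus B27 and 10.2, 8.29 and 9.03 CPM in DMEM plus fatty acids. For LRRN4 they were PYCR3 (0.18), INKA2 (0.19) and GPC4 (0.20). For SFRP5 they were APCDD1 (0.16), STARD4-AS1 (0.21) and ADAM11 (0.22). APCDD1, a Wnt inhibitor at the cell surface, had 22.8, 5.95 and 13.0 CPM against 21.4, 6.58 and 10.2 CPM, with replicate 2 lowest in both media as for SFRP5. For BNC1 they were CFC1 (0.15), RXRG (0.20) and TNFAIP8L1 (0.20), and for UPK1B SYNE2 (0.17), PCNT (0.18) and TMEM163 (0.18). For ITLN1 they were PIM1 (0.10), ADCY6 (0.11) and CDR2 (0.12), none of which was among the 3 most similar with a prior count of 0.5. Of the 9 markers only LRRN4 reached a mean of 5 CPM and could itself be a candidate.

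Other genes of the epicardial and mesothelial programme were examined as lists. For comparison with this and the later lists, edgeR called 1.36% of all tested genes (1.07% lower). The block called 4.77% (3.41% lower) and DESeq2 7.56%, and 17.7% had an unadjusted p under 0.05 by edgeR. Of 17 other epicardial factors and signals, 16 were tested and 0 passed by edgeR, with the block or by DESeq2 (1 at an unadjusted p under 0.05), and the median of their log2 fold changes was -0.15 (0.01 over all genes). TCF21, a bHLH factor of epicardial cells that become fibroblasts, had 1.09, 0.128 and 0.708 CPM in RPMI plus B27 and 0.129, 0.0334 and 0.385 CPM in DMEM plus fatty acids. ALDH1A2, which makes retinoic acid in the epicardium, had 0.941, 0.595 and 0.671 CPM against 0.301, 0.0668 and 0.622 CPM. Both overlapped between media. MEIS1, a homeobox factor that cardiomyocytes also express, had the smallest p of the 16 tested, at 41.0, 42.1 and 43.2 CPM against 59.4, 57.4 and 50.6 CPM (0.41 ± 0.11, edgeR adjusted p 0.136). The untested gene, NR2F1, named after its values were seen, had raw counts of 74, 4 and 6 against 1, 1 and 0. Fitted without the filter, its adjusted p was 0.0632 by edgeR. With the block added it was 0.00852, in a fit that called 1412 of 26979 genes.

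Of 26 other surface and secreted genes expressed by mesothelium, 17 were tested and 4 fell, CFI, PTGIS, CD200 and AQP1, while 1.07% of all tested genes were called in that direction. Their median log2 fold change was -1.39. These genes are not restricted to mesothelium. CFI (complement factor I) had 2.26, 2.21 and 3.13 CPM in RPMI plus B27 and 0.129, 0.134 and 0.148 CPM in DMEM plus fatty acids (-4.16 ± 0.36, edgeR adjusted p 0.0141). PTGIS (prostacyclin synthase) had 38.6, 16.0 and 7.45 CPM against 0.516, 0.568 and 0.237 CPM (-5.56 ± 0.72, adjusted p 0.0292). CD200, an immune-regulatory surface glycoprotein, had 7.64, 5.14 and 5.07 CPM against 0.731, 0.902 and 1.48 CPM (-2.50 ± 0.36, adjusted p 0.0346). AQP1, a water channel of mesothelium and endothelium, had 339.6, 276.9 and 183.6 CPM against 76.2, 101.4 and 70.1 CPM (-1.69 ± 0.25, adjusted p 0.0386). With the block 5 were called and by DESeq2 7. The call added by the block was CALB2 (calretinin, a calcium-binding protein of mesothelium, named after its values were seen), with 0.904, 2.72 and 3.39 CPM against 0.215, 0.902 and 0.829 CPM (-1.82 ± 0.64, edgeR adjusted p 0.202 without and 0.0319 with the block). C3, ANXA8 and PTGS1 had the next smallest p values after the 4 called genes and were lower in each DMEM plus fatty acids library, with edgeR adjusted p values of 0.159, 0.143 and 0.105. CFI, ANXA8 and PTGS1 lay under the filter level in each DMEM plus fatty acids library. Their entry into the test, and so into the counts and median of this list, depended on RPMI plus B27, where they were higher. MUC16, a mucin of mesothelium, and KLK11 had 0 counts in each library. The 4 calls became 2 and 3 without RPMI plus B27 replicate 1 and 3, and 0 without any of the other 4 libraries.

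Of 6 epithelial keratins, 4 were tested. KRT7 and KRT8 fell, against 1.07% of all tested genes called lower. All 4 were called with the block, where 3.41% of all tested genes were called lower. KRT7 had 27.3, 10.1 and 13.4 CPM in RPMI plus B27 and 0.215, 0.267 and 0.592 CPM in DMEM plus fatty acids. KRT19 had 280.6, 100.1 and 157.2 CPM against 74.4, 41.6 and 84.6 CPM (-1.42 ± 0.41, edgeR adjusted p 0.142, and 0.0255 with the block), and KRT18 had adjusted p values of 0.0540 and 0.0418. The keratin calls became 1 without RPMI plus B27 replicate 1 or 3 and 0 without any of the other 4 libraries. Of 14 genes of the epithelial-mesenchymal transition, 13 were tested and 0 passed by edgeR (4 at an unadjusted p under 0.05, and 3 by DESeq2). Against 3.41% of all tested genes called lower with the block, 4 of these fell. Among them were FN1 (fibronectin, adjusted p 0.0540 without and 0.0486 with the block), PDGFRB (0.0605 and 0.0269) and PDGFRA (0.1165 and 0.0282).

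Of 19 relatives and antisense genes found in the files, 16 had a count, 8 were tested and 0 passed by edgeR (3 at an unadjusted p under 0.05, 0 by DESeq2), with 1 called with the block. The uroplakins UPK2 and UPK3A had at most 9 and 3 counts in a library. UPK1A, named after its values were seen, had counts of 41, 26 and 6 in RPMI plus B27 and 4, 0 and 3 in DMEM plus fatty acids, and was not tested. LRRN1 had 1.96, 2.17 and 3.7999 CPM against 0.688, 1.07 and 1.51 CPM (-1.26 ± 0.41, edgeR adjusted p 0.178). SFRP1, the most abundant of these relatives and a secreted Wnt antagonist like SFRP5, had 192.7, 300.3 and 185.9 CPM against 340.5, 377.4 and 301.5 CPM. Its media did not overlap and it stood higher in DMEM plus fatty acids, but it was not called (0.59 ± 0.21, edgeR adjusted p 0.208, and 0.0607 with the block). Among the Wnt antagonists related in function to SFRP5, 7 of 10 were tested and DKK2 fell, from 6.66, 3.32 and 1.15 CPM to 0, 0.1002 and 0 CPM (edgeR adjusted p 0.0423). DKK2 lay under the filter level in each DMEM plus fatty acids library, so its entry into the test depended on RPMI plus B27. DKK2 kept its call in 1 of 6 fits that left out 1 library, that without RPMI plus B27 replicate 3. FRZB was higher with the block (12.2, 6.38 and 7.79 CPM against 22.5, 13.8 and 12.2 CPM, adjusted p 0.222 without and 0.0420 with it). DKK1, with 10.7, 4.63 and 4.43 CPM against 4.65, 1.00 and 1.21 CPM, was lower with the block (adjusted p 0.279 without and 0.0298 with it). The Wnt antagonists called with the block were thus 2 lower and 1 higher, where the block called 4.77% of all tested genes.

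**Figure D4:**
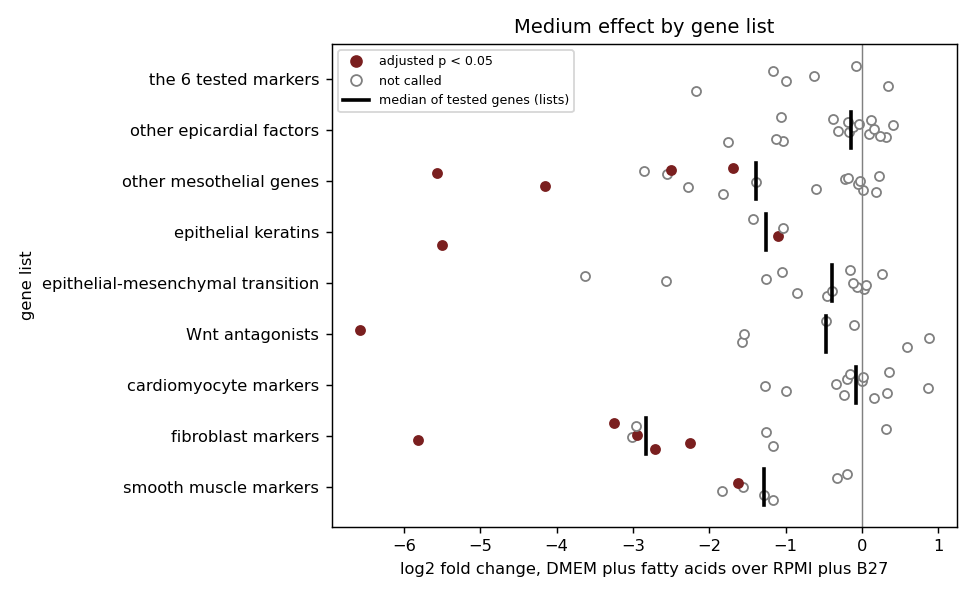
Fitted log2 fold change of each tested gene (DMEM plus fatty acids relative to RPMI plus B27), with the 6 tested markers on the top row and 8 lists below. Filled points have an adjusted p under 0.05 without the block and black bars are list medians, which reach -2.84 for fibroblast markers and lie at -0.08 for cardiomyocyte markers.

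Markers of other cell types were examined beside these values. Of 10 fibroblast markers, all tested, 5 fell (COL1A1, COL3A1, DCN, POSTN and FBN1), against 1.07% of all tested genes called lower. With the block LUM and PDGFRA were also called, which made 7, and DESeq2 called 8. COL1A1, a chain of type I collagen, had 2912, 1322 and 1249.95 CPM in RPMI plus B27 and 211.6, 289.1 and 333.2 CPM in DMEM plus fatty acids. The summed level of the 10 was 4312 to 8281 CPM in RPMI plus B27 and 753.0 to 1949 CPM in DMEM plus fatty acids. The 5 calls became 1 without RPMI plus B27 replicate 1, stayed 5 in number without RPMI plus B27 replicate 3, and were 0 without any of the other 4 libraries. The library highest in RPMI plus B27 was replicate 1 for TBX18 and WT1, and also for 9 of those 10 markers. This was not particular to fibroblast markers. It held for 8 of 12 cardiomyocyte and 6 of 7 smooth muscle markers, for 5 of the 9 epicardial and mesothelial markers, and for 0 of 11 liver and foregut markers. Those 5 include TBX18 and WT1 themselves, and MSLN, which had 3 raw counts in each of RPMI plus B27 replicates 1 and 3. The share over all genes was not determined.

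Of 7 smooth muscle markers, all tested, 1 fell (LMOD1), and their summed level was 1644 to 2188 CPM in RPMI plus B27 and 420.0 to 1249 CPM in DMEM plus fatty acids. With the block 2 were called (4.77% of all tested genes), the second being CNN1 (calponin, adjusted p 0.124 without and 0.0399 with it). LMOD1 lost its call without any 1 of the 6 libraries, while 2 others were called without DMEM plus fatty acids replicate 2. TAGLN and ACTA2, which code for transgelin and smooth muscle actin, were lower in each DMEM plus fatty acids library and not called (edgeR adjusted p 0.206 and 0.253).

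Of 8 endothelial markers 3 were tested and 0 passed by edgeR (1 at an unadjusted p under 0.05, 1 by DESeq2). KDR, a receptor for vascular endothelial growth factor, was higher with the block (27.5, 142.9 and 238.7 CPM in RPMI plus B27 and 114.4, 399.3 and 462.8 CPM in DMEM plus fatty acids, adjusted p 0.434 without and 0.0245 with it). KDR made up nearly all of the summed level of the list, 30.8 to 239.8 CPM against 115.2 to 463.3 CPM. The other endothelial markers were low, and most of those 7 had too few counts to be tested. Within all 3 replicate numbers 5 of the 7 were lower in DMEM plus fatty acids, among them the receptors TEK and TIE1. Of all tested genes 24% were lower in this way, but most of the 7 were not tested. The share among genes with so few counts was not determined.

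For the cardiomyocyte markers the median was -0.08 on the log2 scale, and 0 of 12 were called by edgeR (3 at an unadjusted p under 0.05, 3 by DESeq2). Those 3 did not share a direction. MYH6, the alpha myosin heavy chain, had 3501, 5114 and 5648 CPM in RPMI plus B27 and 6754, 10611 and 8571 CPM in DMEM plus fatty acids (0.86 ± 0.27, edgeR adjusted p 0.166, and 0.0797 with the block). ACTN2 and MYH7, the beta myosin heavy chain, were lower with the block (adjusted p 0.0494 and 0.0359). No fibroblast or smooth muscle marker of these lists was at 0 in every library. The part of these cell types in the TBX18 and WT1 values was not tested.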

How the data were processed

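RNA sequencing libraries of total RNA from 6 cardiomyocyte cultures, prepared with a kit for stranded mRNA according to the labels' protocols, were available as raw counts per gene symbol, deposited as 1 table per library without normalization or pooling. STAR, HTSeq and the build hg38 are named in the submitters' processing notes, while versions, annotation and strand setting are not given in the sources used here. Reads assigned to no gene (5.44% to 7.57% of all counted), to more than 1 gene (3.90% to 4.15%) or to several places (3.05% to 4.10%) name no gene and were left out.

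The test was that of edgeR 4.0.16, run in R 4.3.3 (filterByExpr at its defaults, minimum count 10 and total 15, TMM, quasi-likelihood test, Benjamini-Hochberg over 16107 genes, threshold 0.05), 3 libraries against 3, without covariates. SEs are those implied by the F statistic. The script was tested on simulated data. Deviations from the group mean correlated at 0.31, 0.43 and 0.37 between libraries of the same replicate number and at -0.24 to -0.14 otherwise, so the numbers were taken as pairing; what a number stands for is not in the labels. Between libraries of 1 medium chi-square divided by its degrees of freedom was at least 29.4, so none was a duplicate. Alternatives were DESeq2 1.42.0, 2 other scalings, 2 other filters, the block and leaving out each library; the block without the filter was added after seeing the data. Profiles were compared with a prior count of 2. Locations come from GENCODE v29 and promoter windows from RefSeq (GRCh38.p14).

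Genes that could be named were the 9 markers, the called genes of a list, up to 3 others with its smallest p values and, where at most 6 genes of a list had counts, all of them; not all are printed. CALB2, WT1-AS, UPK2, UPK3A, UPK1A, MUC16, KLK11, KRT20 and TFF3 are further names picked with their values known. The markers and lists were chosen with earlier results of these data known.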

Additional observations from a re-analysis of the deposited data

How the results depend on the processing

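TBX18, BNC1, LRRN4, UPK1B and ITLN1 kept their direction in each alternative that gave them a value. WT1 did so in 5 alternatives relative to the fit without a filter. For UPK3B and MSLN there was only 1 alternative, the block without the filter, so their direction was hardly examined. None of the markers but TBX18 was called in any alternative. TBX18 was called with the replicate block (log2 fold change -2.10, adjusted p 0.0271), without the filter (-2.16, 0.0168), by DESeq2 (-2.19, 7.79e-05) and with the block and no filter together (-2.08, 0.00375), each of which made the count of called markers 1 in place of 0. Leaving out 1 library gave 0 called markers each time. SFRP5 changed sign under total count scaling (0.0239), without RPMI plus B27 replicate 1 (0.31), and without DMEM plus fatty acids replicate 2 (0.19) or 3 (0.00280), against -0.08, with a range of -0.53 to 0.31 over the libraries left out. The count over all genes, 219 (172 lower), was 769 with the replicate block, 539 without the filter, 119 with at least 10 counts in every library, 1218 by DESeq2, 1412 with the block and no filter, and 3 to 131 when 1 library was left out. Total count scaling called 202 (128 lower) and moved the all-gene median from 0.01 to 0.12 on the log2 scale. The cause of these changes was not tested. The LRRN4 share differed by 2.26 percentage points between media, and by -2.03 to 4.54 when 1 library was left out. Of 221 counts of called list genes under alternatives, 150 stayed within 1.5 times the reported count. Most of these came from lists with 0 calls that stayed at 0. Lists with a reported call kept their count less often. Of 13 alternatives each, it stayed in 5 for other mesothelial genes and 5 for Wnt antagonists. It stayed in 3 for keratins, and in 4 each for fibroblast, smooth muscle and podocyte markers. With raw counts of 29 or fewer per library, WT1, UPK1B, UPK3B, MSLN and ITLN1 are limited by depth.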

Other observations

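Several of the 9 genes are also markers of other tissues, and lists of those tissues were examined. Of 8 urothelial markers, 7 had a count and 2 were tested (GRHL3 and PPARG), with 0 called by edgeR (0 at an unadjusted p under 0.05, 0 by DESeq2). Their summed level was 2.57 to 3.73 CPM in RPMI plus B27 and 1.33 to 2.07 CPM in DMEM plus fatty acids, and KRT20 had 0 counts. Of 6 goblet cell markers of the intestine, where ITLN1 is abundant, the summed level was 0.383 to 0.904 CPM against 0.368 to 0.829 CPM, with TFF3 at 0. Podocytes of the kidney express WT1. Of the podocyte markers 4 were tested, 3 with a negative and 1 with a positive fitted change. Of them 1 was called by edgeR (1.36% of all tested genes), 2 with the block (4.77%) and 3 by DESeq2 (7.56%). NPHS1 (nephrin) had at most 14 counts in a library. SYNPO (synaptopodin, an actin-associated protein that is not restricted to podocytes) fell, from 295.3, 216.7 and 137.0 CPM to 43.3, 69.5 and 56.95 CPM (log2 fold change -1.93 ± 0.30, edgeR adjusted p 0.0402). PLA2R1, a receptor of podocytes, was lower with the block (3.46, 1.23 and 1.42 CPM against 0.473, 0.334 and 0.444 CPM, adjusted p 0.0808 without and 0.0373 with it). SYNPO kept its call in 1 of 6 fits that left out 1 library, that without RPMI plus B27 replicate 3.

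TBX18 and SFRP5 also mark the sinus venosus, from which the pacemaker region forms. Of 8 genes listed for that region, 7 were tested and 0 passed by edgeR, with the block or by DESeq2 (0 at an unadjusted p under 0.05). Their summed level was 664.2 to 886.0 CPM in RPMI plus B27 and 755.6 to 931.1 CPM in DMEM plus fatty acids. This list includes NKX2-5, which is also among the cardiomyocyte markers above and is not particular to that region. NKX2-5 alone had 345.4, 324.0 and 456.0 CPM against 310.9, 353.7 and 340.7 CPM, a large part of that sum. HCN4, the main pacemaker channel, had 302.3, 258.1 and 383.3 CPM against 537.1, 390.6 and 353.9 CPM (0.44 ± 0.21, edgeR adjusted p 0.331). TBX3, a T-box repressor of the conduction system, had 12.4, 7.82 and 8.87 CPM against 20.4, 12.5 and 10.8 CPM (0.58 ± 0.30, edgeR adjusted p 0.356). The fitted change was positive for 5 of the 7 tested genes and negative for 2, as it was for TBX18. NKX2-5 was among those 2 (-0.16 ± 0.16, edgeR adjusted p 0.640).

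Markers of liver and foregut endoderm differed between replicates. RPMI plus B27 replicate 3 was the highest RPMI plus B27 library for 10 of these 11 genes, and AFP (alpha-fetoprotein) had 0, 12.7 and 62.8 CPM in RPMI plus B27 and 0.0860, 0.301 and 4.86 CPM in DMEM plus fatty acids. Of these genes 5 were tested and 0 passed by edgeR (0 at an unadjusted p under 0.05, 0 by DESeq2), while AFP was lower with the block (adjusted p 0.339 without and 0.0255 with it). LRRN4, BNC1, UPK1B and UPK3B, 4 of the 9 markers, were highest in RPMI plus B27 replicate 3 as well. So were 14 of 24 other mesothelial and 7 of 17 other epicardial genes, against 2 of 12 cardiomyocyte and 0 of 10 fibroblast markers. The share over all genes was not determined. The part of liver and foregut cells in the values of those 4 markers was not tested.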
